A study of Arabidopsis thaliana with 24 samples.

Results

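Wild-type Arabidopsis thaliana seedlings treated with 0.5 mM H2O2 for 3 h were compared with mock-treated wild-type seedlings, and 1810 genes were listed in the authors' deposited table of that comparison. Only filtered rows are held there, all 1810 with a change of 2-fold or more and an adjusted p below 0.05. Absence from it therefore says nothing about whether a gene changed, and such genes are given as not listed. Dividing p-values by adjusted p-values gave the number of genes over which the authors had adjusted, 22635, so 8.00% of them were listed. Of the listed genes 1112 were higher with H2O2 (4.91% of the genes adjusted over) and 698 were lower (3.08%). These are called the shares of all genes below. The share of a gene list that was listed is of all its annotated members, some of which may not have been adjusted over. The 2 denominators are thus unlike. All 1810 locus identifiers matched the TAIR10.1 annotation, and 1799 of them were protein-coding.

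H2O2 is a small oxidant that cells make during respiration, photosynthesis and defence. At low levels it works as a signal by oxidising cysteines of sensor proteins, and at higher levels it damages proteins, lipids and DNA. Plants remove it with catalases, ascorbate peroxidases and peroxiredoxins, protect proteins with chaperones under heat shock factors, and conjugate reactive products to glutathione or sugars. In roots, reactive oxygen species also act in cell elongation and in the tip growth of root hairs.

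The series holds 24 mRNA sequencing libraries in 8 groups of 3 biological replicates. The groups used here are wild type (Col-0) with H2O2, wild type mock, wild type with 10 mM KNO3 and H2O2, wild type with 10 mM KNO3, nlp7-1 with KNO3, nlp7-1 mock, hbi-q with KNO3 and hbi-q mock. The mutants are in nitrate signalling: NLP7 is a transcription factor that senses nitrate, and the HBI factors give the series its name. All seedlings grew on 7 mM KNO3 for 7 days in a 16 h light and 8 h dark cycle at 22 to 24 °C and then spent 2 days without nitrogen, so the mock and the H2O2 seedlings alike had no nitrogen supply when sampled. The authors' names of the comparisons write KCL, read here as KCl, for the mock, and H2O2 or KCL_H2O2 for the H2O2 group. Those names give no amount of it. Treatments lasted 3 h, and the material was whole seedlings as far as the labels say.

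Values of single libraries were not analysed here, so the spread between replicates enters through the standard error (SE) that the authors' DESeq2 fit gave each log2 fold change. Every level and fold change of H2O2 against mock below comes from the authors' deposited table. The base mean of that table is the mean of its 6 libraries only. This was checked on 1075 genes with a base mean over 100: their H2O2 level came out the same, up to a constant log2 offset of 0.071 (SD 0.0005 across genes), whether it was taken from this table or from the table of KNO3 and H2O2 against H2O2. The level of each group was therefore recovered from the base mean and the fold change, and is given as normalised counts per library, a unit that is not divided by gene length and so does not rank different genes. A level under 1 normalised count per library, which is under 3 over the libraries of a group, rests on almost no reads. This applied to the mock level of 73 higher genes and the H2O2 level of 10 lower genes, and no fold is given for such genes below.

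The 2 directions were unequal in size as well as in number. The median log2 fold change was 1.72 over the higher genes and −1.49 over the lower genes, and at least 4-fold changes were found in 444 higher genes (39.9%) and 154 lower genes (22.1%). A change of at least 16-fold was listed for 136 higher genes and 12 lower genes. Of these, 59 higher and 4 lower genes had under 1 normalised count per library in the group where they were lower, and at 4-fold or more such genes numbered 73 and 10, so their fold rests on almost no reads. The median level of the higher genes was 400.3 normalised counts with H2O2 and 95.7 in mock, and that of the lower genes 47.9 with H2O2 and 141 in mock. The median SE was 0.164 over higher and 0.227 over lower genes. The rows nearest the limit on the higher side were AT3G55470 with 1219.7 against 609.8 normalised counts, AT5G19230 and PUP7, and on the lower side AT2G36090 with 247 against 494, ENODL8 and AT4G11190, all at a fold change of 2 to the second decimal.

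**Figure D1:**
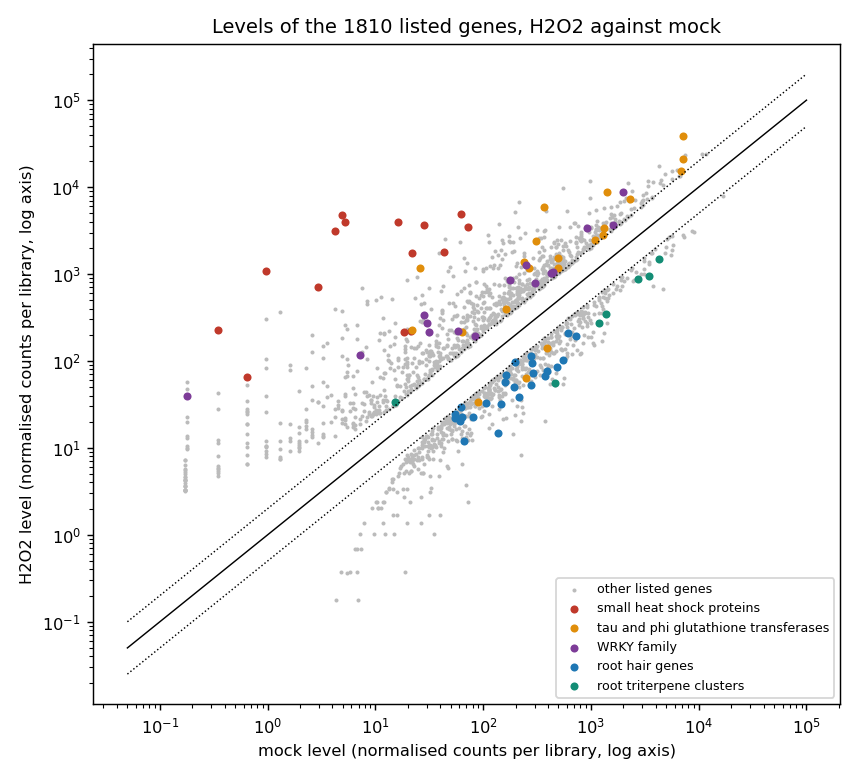
Level of each of the 1810 listed genes with H2O2 (vertical) and in mock (horizontal), in normalised counts per library on log axes, each point 1 gene; the solid line marks equal levels and the dotted lines a 2-fold change. The 15 listed small heat shock proteins stand farthest above the line, at 34098 normalised counts in sum with H2O2 and 304 in mock, and root hair genes lie below it. The sums hold only members past the 2-fold limit.

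The stretches before the annotated start of 8 listed genes are shown because the results below turn on their families: chaperones and their regulators, glutathione transferases, WRKY factors and root hair wall proteins. Each is the 250 bases before the gene's annotated start in RefSeq TAIR10.1, read 5′ to 3′ on the gene's strand, and the genes were chosen after their values were seen. In the first 3, capitals mark GAANNTTC, a 2-unit heat shock element, the kind of site heat shock factors bind.
HSP17.4 promoter, chr3:16984868-16985117, minus strand: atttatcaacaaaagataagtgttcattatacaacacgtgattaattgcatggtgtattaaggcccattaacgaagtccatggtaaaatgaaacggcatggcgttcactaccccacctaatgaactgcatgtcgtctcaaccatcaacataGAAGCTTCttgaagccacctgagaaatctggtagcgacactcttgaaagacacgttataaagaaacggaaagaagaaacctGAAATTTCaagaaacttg
HSFA2 promoter, chr2:11135374-11135623, plus strand: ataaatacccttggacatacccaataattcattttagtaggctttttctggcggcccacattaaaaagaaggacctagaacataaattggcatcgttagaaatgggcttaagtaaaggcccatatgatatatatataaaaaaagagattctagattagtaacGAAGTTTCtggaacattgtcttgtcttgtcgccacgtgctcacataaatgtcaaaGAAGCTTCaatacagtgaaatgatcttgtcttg
DREB2A promoter, chr5:1601955-1602204, plus strand: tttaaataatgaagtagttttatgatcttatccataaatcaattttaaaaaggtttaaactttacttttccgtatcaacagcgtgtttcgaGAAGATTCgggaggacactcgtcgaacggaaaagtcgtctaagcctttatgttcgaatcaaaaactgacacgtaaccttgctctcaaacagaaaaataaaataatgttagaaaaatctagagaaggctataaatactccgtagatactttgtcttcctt
In the next 2, capitals mark TGACG, on either strand, the core of sites bound by TGA factors.
GSTU25 promoter, chr1:5871774-5872023, plus strand: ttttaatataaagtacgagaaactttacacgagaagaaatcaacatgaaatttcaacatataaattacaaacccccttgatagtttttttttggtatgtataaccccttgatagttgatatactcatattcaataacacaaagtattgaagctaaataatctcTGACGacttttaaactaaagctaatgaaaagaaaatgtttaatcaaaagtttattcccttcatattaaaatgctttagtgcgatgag
GSTU7 promoter, chr2:12618900-12619149, minus strand: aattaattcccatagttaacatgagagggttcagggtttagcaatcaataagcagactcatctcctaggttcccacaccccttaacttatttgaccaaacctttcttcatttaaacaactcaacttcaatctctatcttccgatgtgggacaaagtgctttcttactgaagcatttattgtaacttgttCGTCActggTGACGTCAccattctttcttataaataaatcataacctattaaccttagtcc
In the next, capitals mark TTGAC on either strand, the W-box core bound by WRKY factors.
WRKY33 promoter, chr2:16107985-16108234, plus strand: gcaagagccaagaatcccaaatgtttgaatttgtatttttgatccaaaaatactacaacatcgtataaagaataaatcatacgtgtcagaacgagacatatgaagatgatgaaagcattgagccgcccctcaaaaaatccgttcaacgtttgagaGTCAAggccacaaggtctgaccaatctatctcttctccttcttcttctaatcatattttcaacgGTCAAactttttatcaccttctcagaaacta
In the last 2, capitals mark TG, 4 bases of any kind and CACG on either strand, the core of the root hair element found before root hair genes.
EXPA18 promoter, chr1:23331313-23331562, plus strand: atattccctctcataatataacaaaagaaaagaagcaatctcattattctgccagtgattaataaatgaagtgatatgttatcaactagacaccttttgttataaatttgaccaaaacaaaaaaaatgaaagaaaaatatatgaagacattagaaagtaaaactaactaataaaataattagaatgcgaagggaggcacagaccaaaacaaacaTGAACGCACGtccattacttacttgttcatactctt
SHV2 promoter, chr5:19974531-19974780, minus strand: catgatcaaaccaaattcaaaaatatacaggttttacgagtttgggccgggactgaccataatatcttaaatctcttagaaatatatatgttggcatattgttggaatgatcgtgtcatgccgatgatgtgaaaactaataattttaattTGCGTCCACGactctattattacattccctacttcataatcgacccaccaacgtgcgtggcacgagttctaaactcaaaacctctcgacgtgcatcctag

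The 15 listed small heat shock proteins summed to 34098 normalised counts with H2O2, against 304 in mock. All 15 were higher and past the 2-fold limit, so the filter fixed which way these sums differ. Of 19 members of this family, which hold unfolding proteins in a refoldable state, 15 rose with H2O2 and none was listed as lower, against 4.91% higher over all genes. HSP17.6A had 4815 normalised counts with H2O2 and 4.86 in mock (log2 fold change 9.95 ± 0.38 SE). HSP17.6II had 4017 with H2O2 and 5.19 in mock (9.60 ± 0.37), and AT1G53540, another class member, had 3124 and 4.21 (9.53 ± 0.41). HSP17.4, whose promoter above holds 2 heat shock elements, had 4003 with H2O2 and 16.2 in mock (7.95 ± 0.22). The mitochondrial HSP23.6-MITO had 1080 with H2O2 against 0.973 in mock, and the endomembrane ATHSP22.0 had 228 against 0.348. The 4 family members not listed were AT2G19310, AT4G21870, AT5G47600 and AT5G54660.

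Of 36 ATP-driven chaperones and partners 14 rose (38.9% against 4.91% of all genes), and none was listed as lower. HSP101, the disaggregase that pulls proteins out of aggregates, had 6800.5 normalised counts with H2O2 and 214 in mock (4.99 ± 0.10). Hsp70b had 5205 with H2O2 against 198 in mock (4.72 ± 0.10), and HSP70, an inducible cytosolic member, had 11703 against 983 (3.57 ± 0.09). HSP90.1, the inducible cytosolic HSP90, had 9706 with H2O2 and 549 in mock (4.14 ± 0.08). The co-chaperones Hop3 (4.04 ± 0.10) and Fes1A (3.78 ± 0.10) rose by similar amounts, as did MBF1C, a heat-induced transcriptional co-activator (4.06 ± 0.13), and HSA32 (3.53 ± 0.21). The cytosolic HSC70-1, HSP81-2 and HSP81-3 and the ER chaperones BIP1, BIP2 and SHD were not listed, whereas the ER chaperone BIP3 had 568 with H2O2 against 113 in mock (2.33 ± 0.14). Among 87 annotated DnaJ chaperones, which feed clients to HSP70, 6 rose, a share of 6.90% near the 4.91% of all genes. The one with the highest fold change, AT1G71000, had 368 normalised counts with H2O2 against 1.30 in mock (8.15 ± 0.74).

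Of 21 heat shock factors, 6 rose (28.6% against 4.91% of all genes) and 1 fell (4.76% against 3.08%). HSFA2, the factor that maintains chaperone expression under repeated stress, had 2550.5 normalised counts with H2O2 and 44.1 in mock (5.85 ± 0.15). HSFA7A (2.51 ± 0.13), AT-HSFA7B (2.66 ± 0.74), HSFB2A (1.98 ± 0.12), AT-HSFB2B (1.57 ± 0.13) and HSFB3 (1.10 ± 0.19) were higher. HSFC1 was lower, at 16.7 with H2O2 and 48.3 in mock (−1.53 ± 0.35). The constitutive factors HSF1, HSF3, HSFA1D and HSFA1E, which start the heat response, were not listed. DREB2A, a drought and heat regulator upstream of another heat shock factor, had 3809.8 with H2O2 against 140.1 in mock (4.77 ± 0.12).

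**Figure D2:**
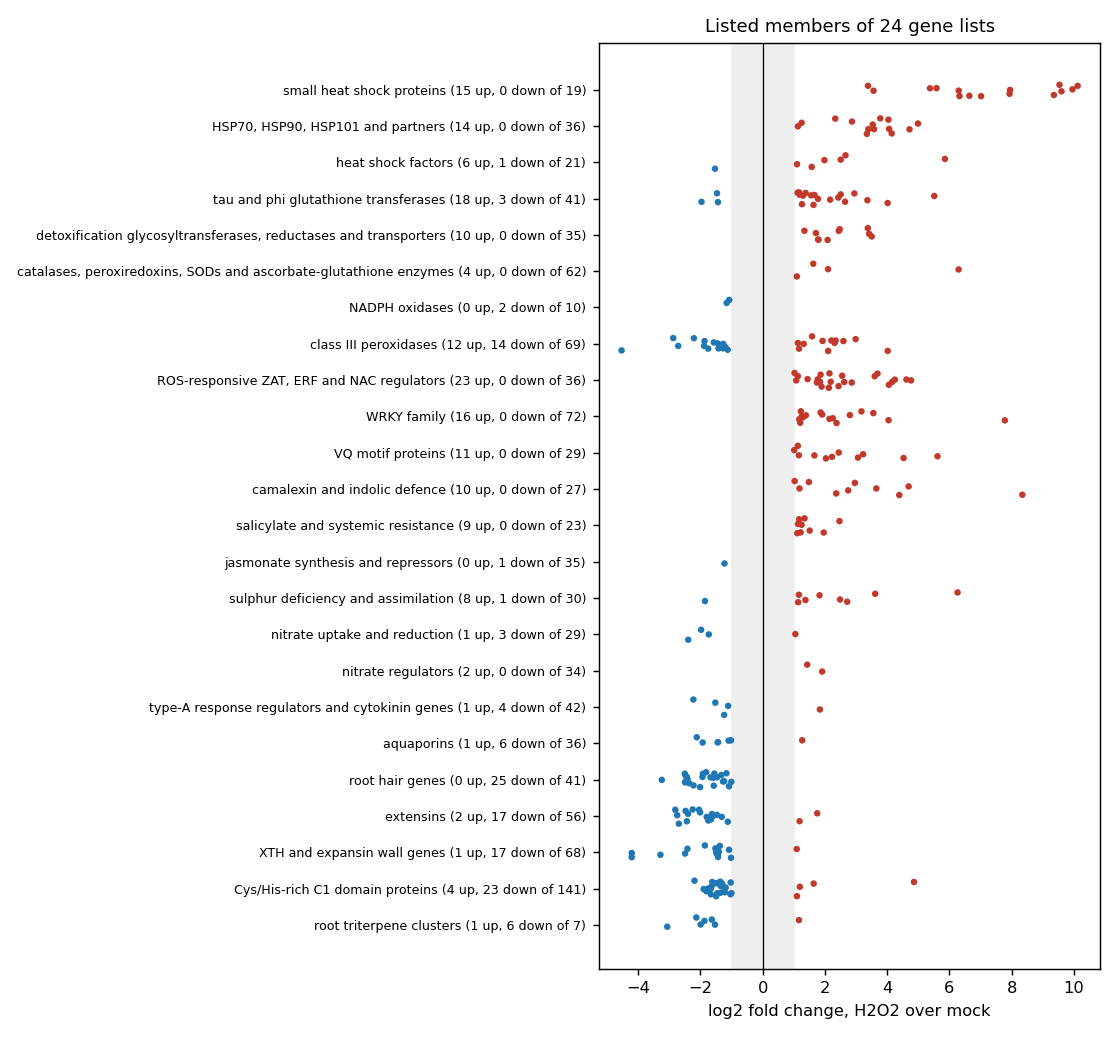
Log2 fold change, H2O2 over mock, of each listed member (points) of 24 gene lists, with the counts higher and lower of all annotated members beside each name; the grey band within a 2-fold change is empty because the deposited table holds no such gene. Small heat shock proteins lie farthest to the right, HSP17.6A at 9.95, and all 25 listed root hair genes lie below 0.

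Glutathione transferases of the tau and phi classes, which conjugate glutathione to reactive electrophiles, numbered 18 higher and 3 lower of 41. Their shares were 43.9% and 7.32%, against 4.91% and 3.08% of all genes. GSTU12 had 1182 normalised counts with H2O2 and 25.9 in mock (5.51 ± 0.20), and GSTU25 had 5934 against 367 (4.01 ± 0.10). GSTU3 (3.36 ± 0.24), GSTU10 (2.94 ± 0.11), GSTF7 (2.65 ± 0.08) and GSTF3 (2.51 ± 0.11) were also higher. GSTF2 was the most counted, with 38379 with H2O2 and 7124 in mock (2.43 ± 0.09). GSTF11, which belongs to aliphatic glucosinolate synthesis, was among the lower members, at 64.2 against 251 (−1.96 ± 0.18). GSTF2 and GSTF3, GSTF7 and its neighbour, and the tandem tau genes are near-identical copies whose reads the counting could split, so their separate values are uncertain.

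Of 35 glycosyltransferases, reductases, cytochromes P450 and transporters known from detoxification, 10 rose (28.6% against 4.91% of all genes) and none was listed as lower. UGT74E2, which glucosylates the auxin indole-3-butyric acid, had 1130.4 normalised counts with H2O2 and 99.9 in mock (3.50 ± 0.13). CYP81D11 (3.42 ± 0.21), UGT73C7 (3.38 ± 0.22), CYP81D8 (2.47 ± 0.10) and UGT73B5 (2.45 ± 0.08) were higher too, as were the efflux carrier DTX1 (2.09 ± 0.11) and the reductase OPR1 (1.79 ± 0.10).

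The enzymes that remove H2O2 itself were mostly outside the list. Of 62 catalases, superoxide dismutases, peroxiredoxins, thioredoxins and enzymes of the ascorbate and glutathione cycle, 4 were higher, 6.45% against 4.91% of all genes. They were APX2, a heat-induced ascorbate peroxidase with 13.8 normalised counts with H2O2 against 0.177 in mock, GPX4 at 22.2 against 5.18 (2.10 ± 0.57), GulLO2 at 578 against 187 (1.62 ± 0.12) and the thioredoxin TRX5 at 4304 against 2010.3 (1.10 ± 0.10). CAT1, CAT2, CAT3, APX1 and CSD1 were not listed. Of 10 NADPH oxidases, which make extracellular superoxide, 2 fell: RBOHB had 122 with H2O2 against 258 in mock (−1.08 ± 0.16) and AT4G25090 had 481 against 1072 (−1.16 ± 0.12). RBOHD and the root hair oxidase RHD2 were not listed. Of 21 alternative oxidases and mitochondrial stress genes 4 rose (19.0% against 4.91% of all genes). They were AOX1D (1.92 ± 0.16), SOT12 (1.84 ± 0.10), BCS1 (1.84 ± 0.07) and DIC2 (1.74 ± 0.14), and AOX1A was not listed.

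Class III peroxidases, secreted enzymes that use H2O2 to cross-link or loosen the wall, were split. Of 69, 12 rose (17.4% against 4.91% of all genes) and 14 fell (20.3% against 3.08%). AT4G36430 had 11291 normalised counts with H2O2 and 2225 in mock (2.34 ± 0.10), and PER4 was higher by 2.99 ± 0.16. AT1G30870 had 124 with H2O2 against 815 in mock (−2.71 ± 0.12), and AT2G39040 had 22.2 against 162 (−2.87 ± 0.25).

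Transcription factors known to answer reactive oxygen species were mostly higher. Of 36 ZAT, ERF, NAC and related regulators, 23 rose (63.9% against 4.91% of all genes) and none was listed as lower. This list was drawn up with their known response to oxidants in mind, so its count is a description. ZAT11 was higher by 4.62 ± 0.17 on the log2 scale, and RHL41, also called ZAT12, had 1659 normalised counts with H2O2 against 137 in mock (3.60 ± 0.13). ERF6 had 1569 with H2O2 and 122 in mock (3.69 ± 0.24), and ZAT6 was higher by 2.86 ± 0.11. The protein kinase AGC2-1, known as OXI1 and required for oxidative burst signalling, was higher by 4.24 ± 0.15. RD26 and ATAF1 were not listed.

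Of 72 WRKY factors, regulators of defence and senescence, 16 rose (22.2% against 4.91% of all genes) and none was listed as lower. WRKY33 had 8689 normalised counts with H2O2 and 1964 in mock (2.15 ± 0.08), and WRKY30 had 335 against 28.5 (3.55 ± 0.23). WRKY55 (4.04 ± 0.38), ABO3, also called WRKY63 (3.17 ± 0.21), WRKY28 (2.80 ± 0.22), WRKY51 (2.37 ± 0.10) and WRKY75 (2.25 ± 0.14) were also higher, and WRKY66 had 39.1 with H2O2 against 0.178 in mock. Of 29 VQ motif proteins, small partners of WRKY factors, 11 rose (37.9%) and none was listed as lower. AT1G17147 had 1083 with H2O2 and 47.0 in mock (4.53 ± 0.18).

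Many genes of defence metabolism were higher as well. Of 27 genes of camalexin and indolic defence, 10 rose and none was listed as lower. PAD3, the last enzyme of camalexin synthesis, had 7581 normalised counts with H2O2 and 974 in mock (2.96 ± 0.09). CYP71A12, which acts earlier on indole acetaldoxime, had 2848 against 110.5 (4.69 ± 0.12), and the regulator MYB51 was higher by 2.36 ± 0.09. Of 27 berberine bridge enzyme-like oxidases, 8 rose (29.6%) and 1 fell (3.7% against 3.08% of all genes). Among the higher ones were AT1G26380 with 2355 against 113 (4.39 ± 0.13) and AT1G26390 with 314 against 11.7 (4.75 ± 0.28). Of 23 salicylate and systemic resistance genes, 9 rose (39.1%), including PR1 (2.47 ± 0.15), GRX480 (1.96 ± 0.10), ALD1 (1.51 ± 0.15) and PAD4 (1.34 ± 0.07). Of 35 jasmonate genes only the repressor JAZ4 was listed, as lower (−1.23 ± 0.16), a share of 2.86% near the 3.08% of all genes. Of 29 ethylene genes 3 rose (10.3%), all ACC synthases (ACS6, ACS2 and ACS7), and 4 fell (13.8%), among them ACS5 and ACS11.

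Of 30 genes of sulphur deficiency and assimilation, 8 rose (26.7% against 4.91% of all genes) and 1 fell (3.33% against 3.08%). Sulphate assimilation feeds cysteine to glutathione. The sulphur-deficiency marker BGLU28 had 373 normalised counts with H2O2 and 4.86 in mock (6.26 ± 0.40), and LSU1 had 901 against 161 (2.48 ± 0.13). APR1 (1.16 ± 0.07) and APR3 (1.37 ± 0.08), which reduce activated sulphate, were higher, and the root uptake carrier SULTR1;1 was lower, at 11.3 against 40.8 (−1.85 ± 0.43).

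Of 29 genes of nitrate uptake and reduction 3 fell (10.3% against 3.08% of all genes) and 1 rose (3.45% against 4.91%). NRT2:1, the main high-affinity nitrate carrier, had 1675 normalised counts with H2O2 and 5566 in mock (−1.73 ± 0.09), and NRT2.4, a carrier of starved roots and shoots, had 70.0 against 368 (−2.39 ± 0.18). NRT2.2 had 5.44 against 21.4 (−1.98 ± 0.61), and shares near-identical sequence with NRT2:1. NRT2.5, the carrier of long starvation, was higher, with 2359 against 1140.4 (1.05 ± 0.10). Of 34 nitrate regulators 2 rose, BT5 (1.91 ± 0.20) and LBD37 (1.43 ± 0.16), a share of 5.88% near that of all genes, and NLP7, TGA1 and TCP20 were not listed. Of the 19 HBI1, BEE and related bHLH genes only BS1, also called PRE3, was listed (−1.14 ± 0.18), and HBI1 was not. The share listed as lower was 5.26%, against 3.08% of all genes.

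Of 42 cytokinin genes 4 fell (9.52% against 3.08% of all genes) and 1 rose (2.38% against 4.91%). CYP735A2, which makes trans-zeatin in roots, had 24.3 normalised counts with H2O2 and 113 in mock (−2.23 ± 0.27), and the feedback regulator ARR6 had 63.8 against 183 (−1.52 ± 0.19). The receptor WOL (−1.24 ± 0.11) and the regulator ARR7 (−1.11 ± 0.16) were also lower, and LOG5, which activates cytokinin, was higher by 1.84 ± 0.13. Of 134 auxin response genes 4 fell and 3 rose, shares of 2.99% and 2.24% against 3.08% and 4.91% of all genes.

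Of 41 root hair genes 25 fell, 61.0% against 3.08% of all genes, and none was listed as higher. EXPA7 and EXPA18, expansins of root hair cells, had 66.6 and 52.3 normalised counts with H2O2 against 375 and 279 in mock (−2.49 ± 0.17 and −2.42 ± 0.19). LRX1, a wall protein of growing hairs, had 101 with H2O2 and 549 in mock (−2.44 ± 0.14), and SHV2, a COBRA-like protein, had 75.8 against 389.6 (−2.36 ± 0.16). PRP3 had 86.1 with H2O2 and 487 in mock (−2.50 ± 0.15), and PRP1 had 14.7 against 139 (−3.24 ± 0.29). Of the regulators in this list, RSL4 was lower, at 20.1 against 60.3 (−1.58 ± 0.33), and so was LRL3. The upstream regulators RHD6, RSL1, RSL2, GL2 and CPC were not listed. These were bulk seedlings, so fewer cells of a type and less RNA per cell cannot be told apart. Of 19 root markers 4 were lower, 21.1% against 3.08% of all genes. They were HKT1 (−3.05 ± 0.24), LRX1, PHO1 (−1.08 ± 0.10) and PLT1 (−1.05 ± 0.26), while SHR, SCR, WOX5 and CASP1 were not listed. Of 57 photosystem, antenna and Calvin cycle genes, which mark green tissue, 5 were higher, 8.77% against 4.91% of all genes. They were LHB1B1, CAB2, PSBO2, LHB1B2 and RBCS3B, higher by 1.03 to 1.87. The listed root markers summed to 1273 normalised counts with H2O2 against 3174 in mock, and the listed photosynthetic genes to 13119.9 against 6164. Both sums hold only members past the 2-fold limit, each set in a single direction, so the filter fixed which way they differ. The larger part of both lists was not listed and is left out of the sums, which therefore say nothing about the share of root. Whether a different share of root in the samples had a part in the root hair result was not tested.

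Of 68 xyloglucan endotransglucosylases and expansins, 17 fell (25.0% against 3.08% of all genes) and 1 rose (1.47% against 4.91%). EXPA7 and EXPA18, among those that fell, were also counted with the root hair genes. XTH21 had 20.5 normalised counts with H2O2 and 378 in mock (−4.21 ± 0.23). XTH13 had 3.76 against 69.4 (−4.21 ± 0.51), and XTH17 (−1.52 ± 0.13) and XTH15 (−1.50 ± 0.12) were also lower. Of 56 extensins, structural proteins that peroxidases cross-link, 17 fell (30.4%) and 2 rose (3.57%). LRX1 and LRX2, among the extensins that fell, were also counted with the root hair genes. EXT10 was at 154 against 1078 (−2.81 ± 0.14) and EXT6 at 72.7 against 471 (−2.69 ± 0.16). Of 141 Cys/His-rich C1 domain proteins, of which little is known, 23 fell (16.3%) and 4 rose (2.84%). Of 36 aquaporins 6 fell (16.7%) and 1 rose (2.78%): TIP2;2 had 199 against 864 (−2.12 ± 0.27) and PIP2B had 1135 against 3094 (−1.45 ± 0.09). Of 28 genes of aliphatic glucosinolate synthesis 4 fell (14.3%), GSTF11, BCAT4, CYP79F2 and IPMI1.

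The lowest fold change among genes with a base mean over 50 was that of AT3G45700, a major facilitator superfamily carrier, with 8.19 normalised counts with H2O2 and 223 in mock (−4.77 ± 0.34). After XTH21 came AT1G19900, LCR85, BGLU35, PRP1, SQP2, ATCSLB05, BGLU34, MRN1, HKT1 and AT4G11210. The glucosidases BGLU34 and BGLU35 had 63.5 and 54.9 with H2O2 against 567 and 548 in mock (−3.16 ± 0.15 and −3.32 ± 0.16). The 12 highest were the small heat shock proteins given above with AT1G52560 and AT1G07400, and also AT1G71000, the F-box protein AT4G22030, AT2G31345 and the secreted lipase GLIP1, with 393 against 4.21 (6.54 ± 0.42). The smallest adjusted p-values, each written as 0 in the authors' deposited table, included those of HSP101, Hsp70b, HSP70, HSP90.1, Hop3, GSTU25, CYP71A12, the dirigent protein DIR5 (5.68 ± 0.14) and the small heat shock proteins AT2G29500 (6.30 ± 0.13) and AT5G51440 (5.58 ± 0.14).

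Over all genes 8.00% were listed. Of 301 ribosomal proteins 1 was higher (0.332%), AT3G51190, with 3.95 normalised counts with H2O2, and of 37 autophagy genes 1 was higher (2.70%), ATG8E (1.47 ± 0.12). Of 23 flavonoid genes 2 fell, F3H and GL3 (8.70% against 3.08% of all genes), and 1 rose, AACT1 (4.35% against 4.91%). Of 37 phosphate starvation genes 4 rose and 4 fell (10.8% each), and of 42 iron genes 4 rose (9.52%) and 2 fell (4.76%). Of the suberin genes, GPAT7 (2.23 ± 0.16), which makes suberin precursors, and the regulator MYB41 (1.68 ± 0.35) rose.

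Some listed genes lay side by side on the chromosomes. A neighbouring protein-coding gene was listed as higher for 25.7% of the higher genes (284), against 7.75% of all protein-coding genes, and as lower for 19.8% of the lower genes (137), against 4.89%. The longest run of genes listed in the same direction was 7, AT5G52670 to AT5G52730, all annotated as copper transport proteins and all higher. Of these AT5G52700 had 547 normalised counts with H2O2 and 11.3 in mock (5.59 ± 0.27), AT5G52720 had 581 against 26.9 (4.43 ± 0.20) and AT5G52710 had 2034 against 349.7 (2.54 ± 0.11). Runs of 4 higher genes were AT1G13520 to AT1G13550, which all carry a DUF1262 domain and of which AT1G13520 had 1888 against 145 (3.70 ± 0.13), AT5G22520 to AT5G22545, AT1G51913 to AT1G51930 and AT1G60720 to AT1G60750. The runs of 4 lower genes included both root triterpene clusters described next, and 4 chitinase-like genes from AT4G19750 to AT4G19800. Adjacent copies of a family can share reads, and overlapping or antisense transcripts cannot be told apart where the counting used no strand, and whether it did is not stated in these sources.

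The thalianol and marneral clusters are groups of adjacent genes that make root triterpenes. THAS1, thalianol synthase, had 939 normalised counts with H2O2 and 3431 in mock (−1.87 ± 0.10). Its neighbours CYP708A2 had 879 against 2729 (−1.63 ± 0.09), CYP705A5 had 1482 against 4285 (−1.53 ± 0.09) and the acyltransferase AT5G47980 had 187 against 1009 (−2.43 ± 0.11). MRN1, marneral synthase, had 55.8 with H2O2 and 468 in mock (−3.07 ± 0.34), with its neighbours CYP71A16 (−1.99 ± 0.10) and CYP705A12 (−2.13 ± 0.11) also lower. Baruol synthase BARS1, of another such cluster, was higher, at 34.2 against 15.2 (1.16 ± 0.40).

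The H2O2 response could be read a second time, in nitrate-fed seedlings. For 1761 listed genes the fold change of KNO3 and H2O2 over KNO3 was derived from 3 of the authors' deposited tables, as H2O2 over mock plus KNO3 and H2O2 over H2O2 minus KNO3 over mock. In this sum the H2O2 and the mock libraries cancel, so its estimate rests on the KNO3 and H2O2 libraries and the KNO3 libraries, which did not choose the genes. Its error was the root of the summed squared SEs of the last 2 terms. Those SEs come from fits that hold the H2O2 and the mock libraries too, so the error is not free of them. The tables were scaled separately, so a constant offset of the order of that log2 0.071 can remain. That offset was not measured for the table of KNO3 over mock. By a two-sided Wald test with Benjamini-Hochberg adjustment over these genes, 1160 (65.9%) passed in the listed direction, 72 passed in the opposite one, and 70.0% passed in either. Of 1072 higher genes 731 passed as higher (68.2%), and of 689 lower genes 429 passed as lower (62.3%). The median log2 fold change was 1.16 in nitrate-fed and 1.67 in nitrogen-starved seedlings over the higher genes, and −1.11 and −1.48 over the lower genes. The second value of each pair is of the contrast that chose the genes, and the difference between the 2 was not tested. Across genes, which are not independent replicates, Pearson's r between the 2 fold changes was 0.78 and Spearman's rho 0.77, given as a description.

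**Figure D3:**
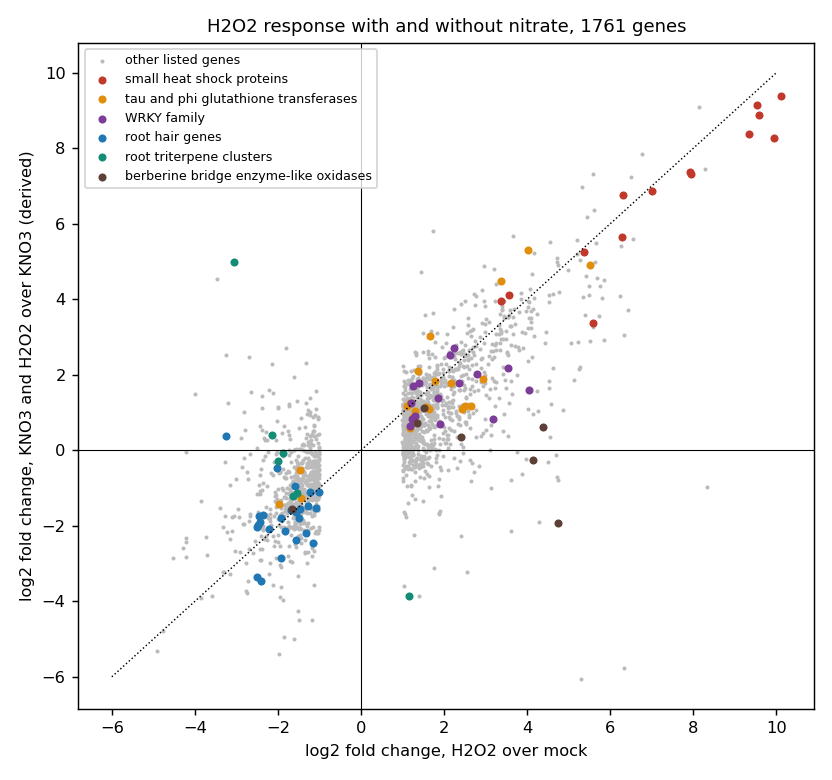
Log2 fold change of KNO3 and H2O2 over KNO3 (vertical, derived) against that of H2O2 over mock (horizontal) for 1761 listed genes, each point 1 gene, with the dotted line where both are equal. Small heat shock proteins lie near the line, whereas several berberine bridge enzyme-like oxidases and root triterpene genes lie near 0 or on the other side of it.

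The families differed in how they came out in nitrate-fed seedlings, compared here by counts against the 65.9% of all listed genes and without a test of the difference. All 14 small heat shock proteins with a value and all 14 ATP-driven chaperones and partners passed in the same direction. HSP17.4 had 3652 normalised counts with KNO3 and H2O2 against 22.7 with KNO3 (7.33 ± 0.42), and HSP101 had 6172 against 223 (4.79 ± 0.14), these levels being placed on the scale of the table of H2O2 against mock. All 21 glutathione transferases, all 10 detoxification genes, all 15 WRKY factors, all 11 VQ motif proteins and 22 of 23 ZAT, ERF and NAC regulators passed likewise. GSTU25 had 6299.5 with KNO3 and H2O2 against 159.7 with KNO3 (5.30 ± 0.15). Of 25 root hair genes 22 passed as lower, EXPA7 at 83.0 against 853 (−3.36 ± 0.25), and so did all 7 aquaporins in their own directions. All 5 cytokinin genes passed in their own directions: CYP735A2 had 190.4 with KNO3 and H2O2 against 1845 with KNO3 (−3.28 ± 0.26). NRT2:1 had 9581 against 55461 (−2.53 ± 0.11).

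In some other lists the share that passed was smaller than, or near, that of all listed genes. Of 9 salicylate genes 4 passed in the same direction, and PR1 was at −0.07 ± 0.37. None of the 5 photosynthetic genes passed. Of 10 camalexin and indolic defence genes 7 passed, near the share of all listed genes, PAD3 at 6173 normalised counts with KNO3 and H2O2 against 866 with KNO3 (2.83 ± 0.13), whereas CYP71A12 stood at 721 against 779 (−0.11 ± 0.15, adjusted p = 0.518). Of 7 root triterpene genes 2 passed in the same direction and 3 in the opposite one. MRN1 had 269 with KNO3 and H2O2 against 8.42 with KNO3 (5.0 ± 0.39), besides its 55.8 with H2O2 against 468 in mock. Other genes with the opposite sign were LCR85, at 119.7 against 5.12 (4.55 ± 0.50), AT5G04120, a phosphoglycerate mutase family member, at 2350.2 against 474 (2.31 ± 0.20), AIR1 at 2757 against 1363 (1.02 ± 0.20), AT1G26390 at 23.9 against 90.5 (−1.92 ± 0.37), NRT2.4 at 247 against 169 (0.55 ± 0.22) and LBD37 at 2849 against 4680.4 (−0.72 ± 0.14). Set beside them, KNO3 over mock was −5.80 for MRN1, −5.46 for LCR85, −3.91 for AT5G04120 and −1.79 for AIR1. It was 2.95 for AT1G26390, −1.12 for NRT2.4 and 5.41 for LBD37. This fold change shares the mock libraries with H2O2 over mock, and it enters the derived value with a minus sign through the KNO3 libraries. For genes picked in this way, opposite signs of KNO3 over mock and of the derived value are thus partly built in, and are no separate result. How large that part is was not tested.

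The H2O2-listed genes were also read in the nitrate response of the mutants, whose libraries did not enter the choice of the genes. That response is of seedlings with altered nitrate signalling. The base means of the hbi-q table equalled those of the wild-type KNO3 table for all 22954 genes within a relative tolerance of 1e-06. If both contrasts came from a common fit, the hbi-q errors draw on wild-type libraries too, the mock ones included. In nlp7-1, 1020 H2O2-higher genes had a value in the authors' deposited table of KNO3 over mock, and 160 (15.7%) were at least 2-fold lower with KNO3 at an adjusted p under 0.05, against 6.63% of all 22610 genes. Of them 109 (10.7%) were higher with KNO3, against 9.03% of all genes. In hbi-q 199 of 1072 H2O2-higher genes (18.6%) were lower with KNO3, against 6.06% of all 22954 genes, and 110 (10.3%) were higher, against 10.1%. Of the H2O2-lower genes 79 of 691 (11.4%) were lower and 71 (10.3%) higher with KNO3 in nlp7-1, and 92 of 698 (13.2%) were lower and 70 (10.0%) higher in hbi-q. Of the H2O2-higher genes 111 were lower with KNO3 in both mutants and 69 were higher in both, and of the H2O2-lower genes 43 were higher in both. The share of all genes called alike in both mutants was not computed. Whether these 3 counts are a trait of the H2O2-listed genes therefore cannot be told. The shares and counts are descriptions, and no test of them was made.

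**Figure D4:**
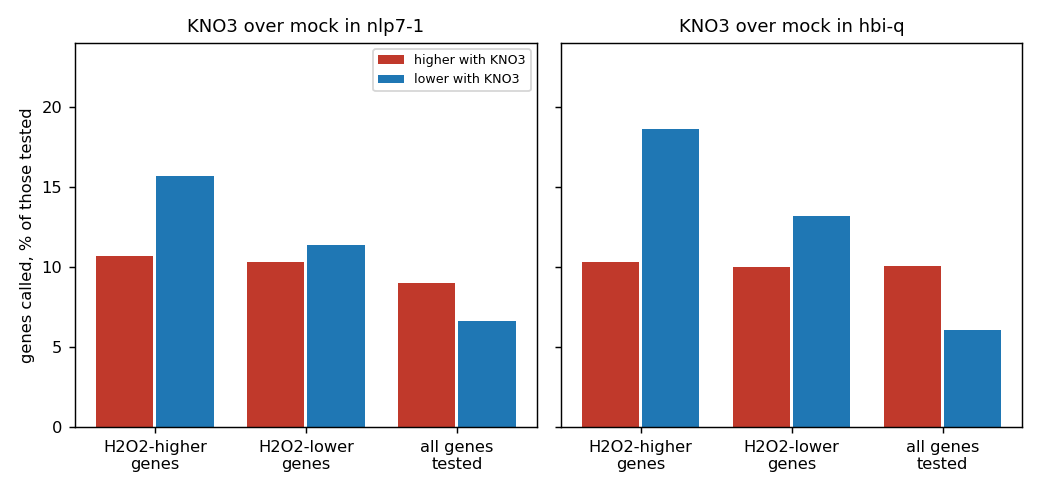
Share of genes called higher (red) or lower (blue) with KNO3 over mock, in % of those with a value, in nlp7-1 (left) and hbi-q (right), for the H2O2-higher genes, the H2O2-lower genes and all genes in the table. Among H2O2-higher genes 15.7% in nlp7-1 and 18.6% in hbi-q were lower with KNO3, against 6.63% and 6.06% of all genes.

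Most chaperones were not called with KNO3 in the mutants, which was also true of all genes. Of all genes 9.03% were called higher and 6.63% lower in nlp7-1, and 10.1% and 6.06% in hbi-q. Among the listed small heat shock proteins with a value, 3 of 13 were higher and none lower with KNO3 in nlp7-1. In hbi-q 1 of 14 was higher. HSP17.6II changed by 4.12 ± 1.21 in nlp7-1 (adjusted p = 0.00252 in the authors' deposited table). Of the 14 listed ATP-driven chaperones and partners none was called with KNO3 in nlp7-1 or in hbi-q: HSP101 changed by 0.50 ± 0.18 in nlp7-1 and 0.31 ± 0.11 in hbi-q on the log2 scale, both under 2-fold. Among the glutathione transferases 7 of 21 were lower with KNO3 in hbi-q and 3 of 19 in nlp7-1, against 6.06% and 6.63% of all genes. GSTU24 was called in both, at −1.68 ± 0.09 in hbi-q and −1.29 ± 0.16 in nlp7-1. GSTU25 was called in hbi-q (−1.26 ± 0.14) and stayed under 2-fold in nlp7-1 (−0.97 ± 0.20). The cytokinin genes CYP735A2, ARR6 and ARR7, lower with H2O2, were higher with KNO3 in both mutants, CYP735A2 by 4.40 ± 0.18 in nlp7-1 and 4.83 ± 0.12 in hbi-q. NRT2:1 was higher with KNO3 by 3.83 ± 0.28 in nlp7-1 and 4.99 ± 0.07 in hbi-q, and NRT2.5 changed by −3.43 ± 0.26 in nlp7-1 and −4.07 ± 0.12 in hbi-q. LBD37, higher with H2O2, was also higher with KNO3, by 4.84 ± 0.19 in nlp7-1 and 5.89 ± 0.11 in hbi-q, and so was SULTR3;5, by 5.51 ± 0.26 in nlp7-1 and 4.91 ± 0.27 in hbi-q. For wild type the KNO3 table shares its mock libraries with the H2O2 table, so its values are only set beside those of H2O2: CYP735A2 was at −2.23 with H2O2 and 4.02 with KNO3, NRT2:1 at −1.73 with H2O2 and 3.32 with KNO3, NRT2.5 at 1.05 with H2O2 and −3.02 with KNO3, and GSTU25 at 4.01 with H2O2 and −1.20 with KNO3.

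Motifs were counted in windows of 250 bases before to 50 bases after the annotated start of 1107 higher, 692 lower and 27443 protein-coding genes in all, on both strands. GAANNTTC was found before 20.2% of higher and 9.68% of lower genes, against 11.6% of all protein-coding genes. TTGAC was found in 66.5% and 54.3%, against 50.5%, and TGACG before 332 of 1107 higher genes and 134 of 692 lower genes (19.4%), against 23.1%, and the letters of these overlap where TTGACG occurs. CTTG, 5 bases of any kind and CA, the start of the mitochondrial dysfunction motif bound by NAC factors, was found in 13.3% and 8.82%, against 9.56%. CACGTG (8.22% and 6.65%, against 7.68%) and GNATATNC, the P1BS site of phosphate starvation (6.87% and 7.08%, against 6.25%), were near the share of all genes. Within families TGACG was found for 10 of 18 higher glutathione transferases. TTGAC was found for 14 of 16 higher WRKY genes, 13 of 18 higher glutathione transferases and 18 of 23 higher ZAT, ERF and NAC regulators. It was found for 8 of 10 higher detoxification genes, 6 of 14 ATP-driven chaperones and partners and 5 of 15 small heat shock proteins. GAANNTTC was found for 10 of 23 higher ZAT, ERF and NAC regulators and 5 of 15 small heat shock proteins (33.3%, against 11.6% of all). A longer 3-unit element, GAANNTTC with 2 bases of any kind and GAA after it, was found in 1.63% of higher and 0.434% of lower genes, against 0.481% of all. This longer element was found for 2 of 15 small heat shock proteins and 2 of 14 ATP-driven chaperones and partners. The root hair element core (TG, 4 bases of any kind and CACG) was found for 10 of 25 lower root hair genes, and in 9.25% of lower genes and 5.69% of higher genes, against 4.98% of all. A match is a description of these letters and not a bound site.

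**Figure D5:**
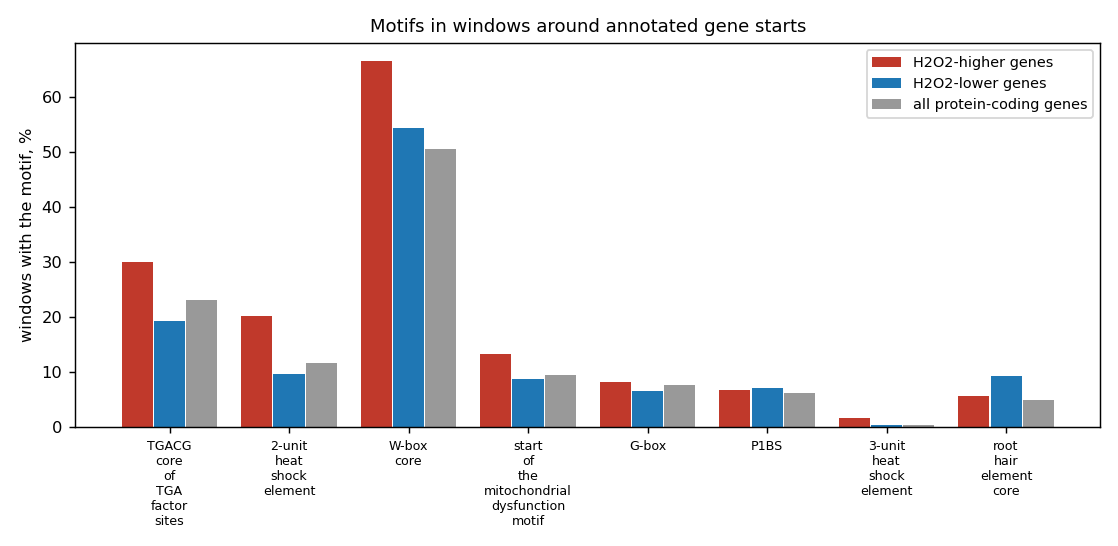
Share of windows from 250 bases before to 50 after the annotated gene start that hold each of 8 motifs on either strand, in %, for H2O2-higher genes (red), H2O2-lower genes (blue) and all protein-coding genes (grey). The 2-unit heat shock element is at 20.2% of higher genes and 11.6% of all, and the root hair element core at 9.25% of lower genes and 4.98% of all.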

How the data were processed

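Per the labels' protocols, mRNA libraries from seedling total RNA were read on the BGISEQ-500 platform. Per the submitters' processing notes the tools were HISAT, Bowtie2, HTSeq and DESeq2 with the build TAIR10, with no versions stated. Per the file headers, the authors' deposited tables give a base mean, which is a signal: the average over libraries of size-factor-scaled counts. Fold changes and errors were deposited on a log2 scale, and the deposited score equalled their quotient. Each deposited p-value is from the authors' DESeq2 test, with its Benjamini-Hochberg adjusted p-value. The depth of each library is unknown. Per-library values were not analysed here, so no model was fitted to counts.

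From these tables were computed, with Python 3.11.15, pandas 2.3.3, numpy 2.4.6, scipy 1.17.1 and matplotlib 3.10.9, the number of genes adjusted over (95.3% of the ranks came out whole within 0.01), group levels, a derived nitrate-fed contrast tested on simulated data, and motif shares. A call in nlp7-1 or hbi-q needed an adjusted p under 0.05 and a 2-fold change. Members of 39 gene lists came from TAIR10.1 symbols and products, and a gene could be in more than 1 list. In all, 1860 genes were in a list, 354 of them listed. Named were the 12 highest and 12 lowest fold changes with a base mean over 50, the 10 smallest p-values, the 3 rows nearest the limit on each side and up to 8 listed members of a list. Genes in runs, genes of opposite sign, promoters and the last 2 motifs were chosen after their values were seen. The genes and lists were chosen with earlier results of these data known, and some lists were corrected or added after values were seen. The lower side of the suberin and endodermal barrier list is not reported here.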

Additional observations from a re-analysis of the deposited data

How the results depend on the processing

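Limits: the depth of each library and the values of single libraries are unknown here, so leaving out each replicate was not run. No paired analysis was possible because the deposited tables hold 1 value per gene and comparison and none per replicate. Counts of listed genes can only shrink under stricter limits. At an adjusted p under 0.01 the listed counts stayed within 1.5 times. At a minimum of 4-fold 444 higher and 154 lower genes were left, of which 104 and 33 were in a gene list. With a base mean over 50, 448 lower genes were left. In nitrate-fed seedlings a minimum of 2-fold left 40 genes of opposite direction, and the other alternatives, an error from all 3 tables, an adjusted p under 0.01 and a base mean over 50, stayed within 1.5 times in both directions. Without a minimum fold, H2O2-higher genes higher and lower with KNO3 numbered 166 and 304 in nlp7-1 and 216 and 434 in hbi-q, and H2O2-lower genes 134 and 170 in nlp7-1 and 172 and 211 in hbi-q. With a base mean over 50 the H2O2-lower genes higher and lower with KNO3 numbered 34 and 50 in nlp7-1, and 44 were higher in hbi-q. Among single gene lists 52 counts moved by over 1.5 times at a minimum of 4-fold and 14 with a base mean over 50. Searching the given strand only left 6 of the motif counts as they were or within 1.5 times and moved 6, since it can find fewer matches of a motif that differs between strands.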
